A study of Mus musculus with 6 samples.

Results

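The 10 genes Fos, Fosb, Fosl2, Jun, Junb, Jund, Egr1, Ier2, Ier3 and Myc were examined in liver tumors that DEN had induced in WT and Nr2e3-/- mice. They were chosen by symbol, as AP-1 subunits, immediate early genes and Myc, from the 24063 genes of the count table, and all 10 were found there. RNA-seq was performed on 3 WT (NR2E3+/+) and 3 Nr2e3-/- (NR2E3-/-) liver tumors of male C57BL/6 mice (the methods give C57BL/6J for the WT mice). According to the methods, male mice of both genotypes received 25 mg per kg of diethylnitrosamine (DEN), a hepatocarcinogen that is activated in hepatocytes, by intraperitoneal injection at 15 days of age, and the tumors were collected at the 24-week time point. Both groups thus share the carcinogen, and neither normal liver nor untreated animals were analysed here. The knockout allele and whether the WT mice were littermates are not described in the sources used here. For the separate DEN injury experiment, the methods state that the WT mice came from Jackson Laboratory. They name no source of the WT mice for the tumors. The methods give tumor tissues of 3 WT and 3 Nr2e3-/- mice. The labels name separate samples without tying them to animals, so the p-values measure the spread between these samples.

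AP-1 is a dimer of basic leucine zipper proteins in which a Jun protein pairs with a Fos protein or with another Jun protein, and the dimer binds the TRE and CRE elements of target genes. Fos, Fosb, Jun, Junb, Egr1, Ier2 and Ier3 are immediate early genes, whose transcription starts within minutes of a growth factor, cytokine or stress signal without new protein synthesis and soon ceases. Myc, a helix-loop-helix leucine zipper factor that binds E-boxes with its partner Max, drives ribosome production and cell growth, and both Jun and Myc are known for their roles in liver regeneration and in DEN-induced liver tumors of mice. The title of the series names Sp1 beside Myc, and a Sp1 motif was therefore included in the promoter search.

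Promoter sequences are shown for Fos, Jun and Junb, the AP-1 subunits that represent a lower, a level and a higher mean in Nr2e3-/- tumors. Of the 10 genes, 7 had a RefSeq promoter (250 bases before to 50 after the start, build GRCm38.p6), and Egr1, Ier2 and Myc had none. Fos lies on the plus strand (chr12:85473640-85473939), Jun on the minus strand (chr4:95052173-95052472) and Junb on the minus strand (chr8:84978699-84978998). Each sequence is given 5′ to 3′ on the strand of the gene, and capitals mark the Sp1 motif GGGCGG, the CRE core TGACG and the TATA motif TATAAA on either strand.
Fos: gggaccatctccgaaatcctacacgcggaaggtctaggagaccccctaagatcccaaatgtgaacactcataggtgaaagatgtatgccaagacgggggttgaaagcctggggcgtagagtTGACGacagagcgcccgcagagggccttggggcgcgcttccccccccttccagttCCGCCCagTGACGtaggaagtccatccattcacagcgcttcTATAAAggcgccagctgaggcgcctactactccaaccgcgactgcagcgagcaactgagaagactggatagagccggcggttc
Jun: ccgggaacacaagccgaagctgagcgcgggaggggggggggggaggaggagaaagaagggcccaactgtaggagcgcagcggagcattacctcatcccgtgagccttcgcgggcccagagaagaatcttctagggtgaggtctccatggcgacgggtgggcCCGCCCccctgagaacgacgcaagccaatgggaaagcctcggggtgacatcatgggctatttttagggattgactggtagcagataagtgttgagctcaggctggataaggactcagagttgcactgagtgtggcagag
Junb: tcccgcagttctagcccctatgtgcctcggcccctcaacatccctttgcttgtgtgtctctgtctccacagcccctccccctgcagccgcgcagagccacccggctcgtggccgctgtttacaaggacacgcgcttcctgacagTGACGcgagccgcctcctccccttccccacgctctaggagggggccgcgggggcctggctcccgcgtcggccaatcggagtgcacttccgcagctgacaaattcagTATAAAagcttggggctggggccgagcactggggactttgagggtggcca
The Sp1 motif was found in 5 of the 7 promoters (Fos, Fosb, Fosl2, Jun and Ier3) against 35.7% of all 32851 promoters of the same length. In Fos it began at -74, between a pair of CRE cores at -129 and -66 and upstream of the TATA motif at -33, counted from the RefSeq start. Jun held the Sp1 motif at -89. Junb held a CRE core at -106 and the TATA motif at 1, the RefSeq start itself. That start lies upstream of the GENCODE start of Junb (84978718), so the Junb positions differ when counted from the GENCODE start. The CRE core was found in 3 of the 7 promoters (Fos, Fosb and Junb) against 20.8% of all promoters, and the TATA motif in 2 of the 7 against 13.6%. No match was found in the 7 windows for the TRE (TGANTCA, 7.81% of all promoters), the full CRE (TGACGTCA, which contains the core, 1.79%), the E-box CACGTG (7.15%) or the CArG box bound by SRF (1.63%), which says only that these letters are not in these windows. The Jund window held no match to any motif searched.

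Depth was between 25250090 and 28690279 counts per library in WT and between 15376261 and 28336305 in Nr2e3-/- tumors. Nr2e3 itself had 0 counts in all 6 libraries, so its counts do not check the genotype. Hepatocyte markers were abundant in every library, with a summed level of 113400 to 157700 CPM (counts per 1000000, normalized by TMM) over 8 genes. Nr2e3-/- replicate 1 stood apart from its group. Over all genes tested, its median absolute log2 difference was 0.21 to 0.24 from the WT libraries but 0.38 from Nr2e3-/- replicate 2 and 0.30 from replicate 3. Each result of the 10 genes is therefore also given without this library where that alters a call. For the lists of related genes, only the number called without it is given, and single genes of these lists can differ in their call.

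Junb was higher on average in Nr2e3-/- than in WT tumors and Egr1 and Ier2 were lower, but none of the 10 genes differed by enough to pass the test after adjustment. The counts were tested in edgeR by quasi-likelihood, two-sided, and p-values were adjusted by Benjamini-Hochberg over 13572 genes, with 0.0958% of them called at 0.05. Of the 10 genes, 9 passed the filter on low counts (Fosb did not) and 0 were called. DESeq2 also called 0 of the 9, against 8% of all genes tested, and limma-voom called 1 (Egr1), against 17.4%, when libraries were weighted by their quality, and 0, against 0.0516%, without such weights. Without adjustment, 3 of the 9 had a p-value under 0.05 in edgeR (Junb, Egr1 and Ier2), against 21.5% of all genes tested. All libraries of a genotype lay apart from those of the other for 1 of the 9 (Ier2), against 26.8% of all genes tested. An exact permutation test cannot give less than 0.1 with 3 libraries against 3.

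Jund (GRCm38, chr8:70698949-70700616, plus strand) encodes a Jun protein that is present in resting cells. Levels were compared between genes per kilobase of annotated exon, on which scale Jund ranked first in both genotypes, at 44.4 ± 5.74 CPM per kb in WT and 53.0 ± 14.5 in Nr2e3-/- tumors (SD, n = 3 each). In WT tumors Ier2 (18.1 ± 0.973 CPM per kb), Junb (16.2 ± 2.81) and Egr1 (14.96 ± 3.58) followed within each other's spread, then Jun (9.84 ± 0.429), with Ier3, Myc, Fos and Fosl2 between 2.84 and 1.27 and Fosb last at 0.058. Without the length scaling, Jund was at 83.4, 74.4 and 64.3 CPM in WT replicates 1, 2 and 3, and at 60.7, 105 and 98.96 CPM in replicates 1, 2 and 3 of Nr2e3-/-. The groups overlapped, since Nr2e3-/- replicate 1 had the lowest level of all 6 libraries and replicates 2 and 3 the highest. Its log2 fold change of Nr2e3-/- over WT was 0.26 (SE 0.22, edgeR adjusted p = 0.506). Without Nr2e3-/- replicate 1 it was 0.47 (edgeR adjusted p = 0.0453).

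Junb (chr8:84974484-84978718, minus strand), an immediate early Jun protein that is a weaker activator than Jun on many promoters, had the smallest p-value of the AP-1 genes among the 10. The WT libraries held 40.3, 41.8 and 30.0 CPM, and replicates 1, 2 and 3 of Nr2e3-/- held 32.8, 102 and 71.8 CPM. Replicates 2 and 3 were above every WT library, whereas replicate 1 lay within the WT range. Its log2 fold change was 0.89 (SE 0.37, unadjusted p = 0.0487, edgeR adjusted p = 0.231). Without Nr2e3-/- replicate 1 it was 1.23 (edgeR adjusted p = 0.0104). In that comparison 2 of the 9 genes were called, Junb and Jund, against 21.8% of all genes tested. The annotated span of Junb overlaps that of Prdx2 on the opposite strand, and reads from a shared stretch cannot be told apart without strand. Prdx2 was at 75.5 ± 2.08 CPM in WT and 78.4 ± 6.13 CPM in Nr2e3-/- tumors (SD, n = 3 each), with a log2 fold change of 0.06.

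Jun (chr4:95049034-95052222, minus strand), the founding Jun protein and the main target of JNK, was level in WT tumors, at 32.3, 29.8 and 32.0 CPM. In Nr2e3-/- tumors it was at 20.0, 51.9 and 31.9 CPM, so that replicate 1 was below and replicate 2 above every WT library. The highest Nr2e3-/- library held 2.60 times the level of the lowest, against 1.09 times in WT. The difference on the log2 scale was 0.15 (SE 0.31, edgeR adjusted p = 0.80), and it turned to -0.27 without Nr2e3-/- replicate 2. The noncoding gene Junos overlaps Jun on the opposite strand in the annotation used here, and Gm11175 overlaps Jund.

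**Figure D1:**
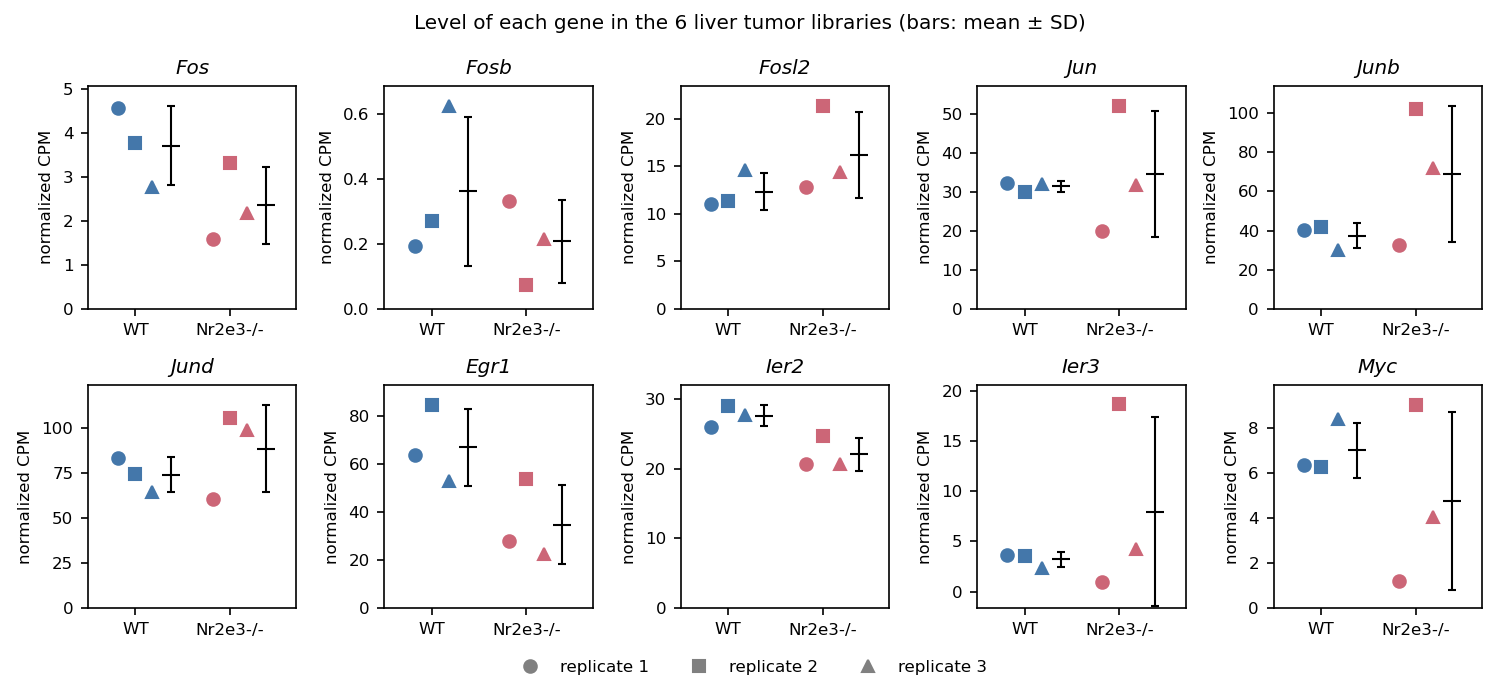
Level of each of the 10 genes, in normalized CPM (vertical axes, each on its own scale), in the 3 WT (blue) and 3 Nr2e3-/- (red) liver tumor libraries, with the replicate number given by the symbol and the mean ± SD drawn beside each group. Junb reaches 102 and 71.8 CPM in Nr2e3-/- replicates 2 and 3 but 32.8 CPM in replicate 1, Ier2 alone separates the groups, and Ier3 and Myc spread most in Nr2e3-/- tumors.

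Fos (chr12:85473890-85477273, plus strand), the inducible partner of Jun, was low in all tumors. It was at 4.57, 3.76 and 2.77 CPM in WT (119, 111 and 80 counts) and at 1.59, 3.30 and 2.16 CPM in replicates 1, 2 and 3 of Nr2e3-/- (24, 89 and 40 counts). The groups overlapped through Nr2e3-/- replicate 2, and the other Nr2e3-/- libraries were below every WT library. Fos had a log2 fold change of -0.63 (SE 0.32, edgeR adjusted p = 0.294), and it stayed negative in all 14 alternatives, from -0.97 to -0.41.

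Fosl2 (Fra-2, chr5:32135801-32157842, plus strand), a Fos protein without the strong activation domain of Fos, was at 11.1, 11.3 and 14.6 CPM in WT and at 12.8, 21.3 and 14.4 CPM in Nr2e3-/- tumors. Only Nr2e3-/- replicate 2 exceeded the WT range. Its log2 fold change was 0.40 (SE 0.22, edgeR adjusted p = 0.331). Fosb (chr7:19302696-19310051, minus strand), a close relative of Fos, had 5, 8 and 18 counts in WT and 5, 2 and 4 counts in Nr2e3-/- libraries, which is too few to pass the filter, and a difference was not detectable at this depth.

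Summed per kilobase, the Jun family far exceeded the Fos family. The Jun, Junb and Jund sum was 77.7, 72.1 and 61.6 CPM per kb in WT and 56.9, 124 and 100.5 CPM per kb in Nr2e3-/- replicates 1, 2 and 3. The Fos, Fosb and Fosl2 sum was 2.90 ± 0.185 CPM per kb in WT and 2.70 ± 0.817 CPM per kb in Nr2e3-/- tumors (SD, n = 3 each). It amounted to 4.01%, 3.89% and 4.52% of the Jun family in WT and to 3.6%, 2.92% and 2.43% in Nr2e3-/- libraries, ranges that did not overlap. Within the Fos family, Fosl2 took 36.7%, 41.6% and 54.0% in WT and 64.4%, 60.8% and 60.9% in Nr2e3-/- tumors. This share did not overlap between the groups either, and Nr2e3-/- replicate 1 lay with its own group here. Within the Jun family, Junb took 22.6%, 25.2% and 21.1% in WT and 25.03%, 35.8% and 31.1% in Nr2e3-/- tumors, with replicate 1 inside the WT range. These shares are descriptions, with no test, and the groups did not overlap for 26.8% of all genes tested either.

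**Figure D2:**
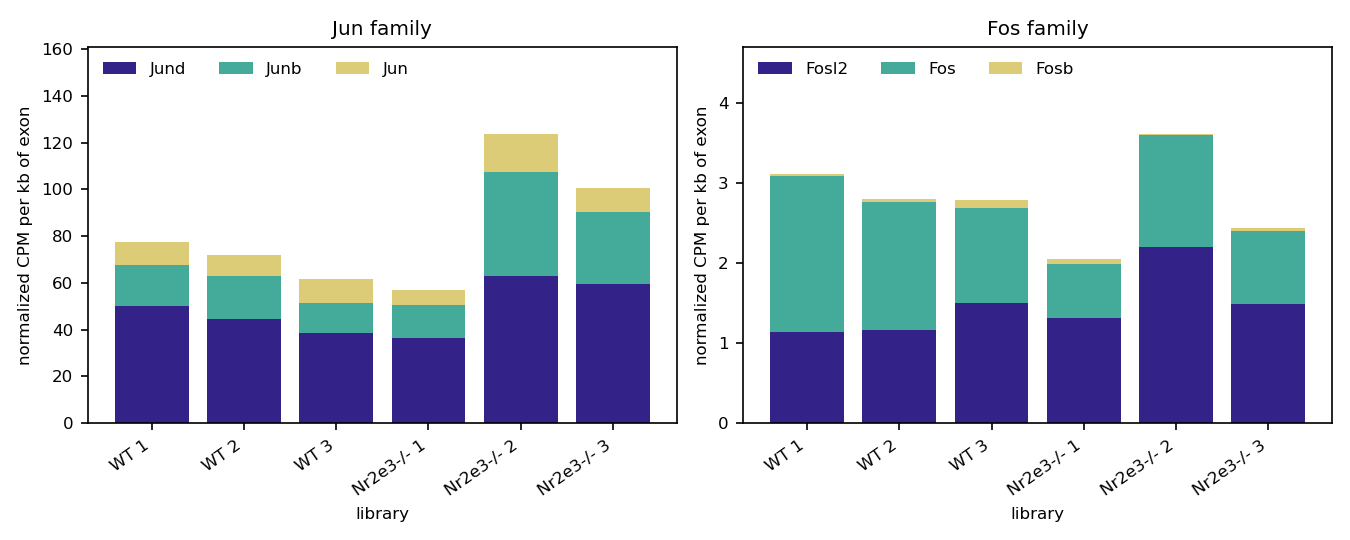
Summed level of the Jun family (left) and the Fos family (right) in each of the 6 libraries, in normalized CPM per kb of exon (vertical axes, which differ in scale), with each bar divided by gene. The Fos family here is Fos, Fosb and Fosl2, without Fosl1. The Jun family reaches 124 CPM per kb in Nr2e3-/- replicate 2 and 56.9 in replicate 1, while Fosl2 makes up 60.8% to 64.4% of the Fos family in Nr2e3-/- tumors and 36.7% to 54.0% in WT.

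Egr1 (chr18:34859823-34864984, plus strand), a zinc finger factor induced through SRF and ETS proteins by ERK signaling, had the lowest log2 fold change of the 9 genes. It was at 63.9, 84.5 and 52.9 CPM in WT and at 28, 53.7 and 22.6 CPM in replicates 1, 2 and 3 of Nr2e3-/-. The groups met only where Nr2e3-/- replicate 2 slightly exceeded WT replicate 3. The log2 fold change was -0.94 (SE 0.34, unadjusted p = 0.0251, edgeR adjusted p = 0.177), and over the 14 alternatives it lay between -1.41 and -0.71. With limma-voom and sample quality weights Egr1 was the only gene of the 9 called (log2 fold change -1.26, limma adjusted p = 0.0302), and without the weights it was not called (log2 fold change -0.998, limma adjusted p = 0.156). With DESeq2 its adjusted p-value was 0.0591.

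Ier2 (chr8:84661331-84662852, minus strand), a nuclear protein of the immediate early response, was the only gene whose groups separated. It was at 26.1, 29.03 and 27.7 CPM in WT and at 20.7, 24.7 and 20.7 CPM in Nr2e3-/- tumors (p = 0.1 in a two-sided exact permutation test, which cannot go lower here). All Nr2e3-/- libraries were below all WT libraries. The difference was small beside that of Egr1, with a log2 fold change of -0.32 (SE 0.12, unadjusted p = 0.0287, edgeR adjusted p = 0.186). It kept its sign in all 14 alternatives, between -0.41 and -0.27, and its adjusted p-value stayed above 0.05 in each.

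Ier3 (chr17:35821684-35822923, plus strand), which encodes a stress-inducible protein that modulates ERK signaling and cell survival, spread more than any other of the 9 genes in Nr2e3-/- tumors. It was at 3.69, 3.55 and 2.39 CPM in WT and at 0.927, 18.7 and 4.27 CPM in replicates 1, 2 and 3 of Nr2e3-/-, where the highest library held 20.2 times the lowest. Nr2e3-/- replicate 2 decided its direction. Ier3 had a log2 fold change of 1.34 with all libraries (SE 0.86, edgeR adjusted p = 0.391) and -0.28 without replicate 2 (edgeR adjusted p = 0.801).

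Myc (chr15:61985391-61990374, plus strand) was the gene with the next largest spread. It was at 6.34, 6.26 and 8.39 CPM in WT and at 1.19, 8.98 and 4.06 CPM in replicates 1, 2 and 3 of Nr2e3-/- (18, 242 and 75 counts). Replicates 1 and 3 were below every WT library and replicate 2 above. Its log2 fold change was -0.53 (SE 0.58, edgeR adjusted p = 0.611). It moved to -0.08 without Nr2e3-/- replicate 1 and to -1.39 without replicate 2 (edgeR adjusted p = 0.206), so the size rests on which of these libraries is included. A difference in Myc mRNA between the genotypes was thus not larger than the spread between replicates.

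**Figure D3:**
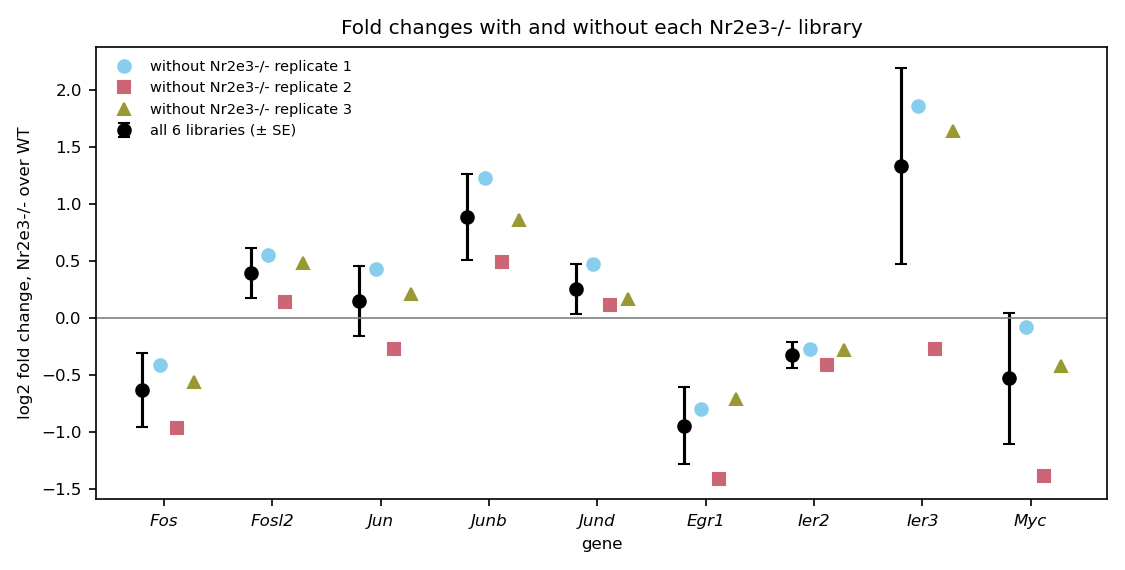
Log2 fold change of Nr2e3-/- over WT for the 9 genes tested, with all 6 libraries (black, ± SE) and with each Nr2e3-/- library left out in turn (colored symbols). Leaving out replicate 2 lowers every value, and takes Jun from 0.15 to -0.27 and Ier3 from 1.34 to -0.28, while leaving out replicate 1 raises Junb to 1.23.

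The Nr2e3-/- libraries were ordered alike for most of these genes. Replicate 2 had the highest level among the Nr2e3-/- libraries in 9 of the 9 genes tested (untested Fosb was lowest there), against 35.5% of all genes tested, and replicate 1 the lowest of 7, against 38.9%. The order from replicate 1 through 3 to 2 was seen for 7 of the 9, against 23.7% of all genes tested. The median ratio of the highest to the lowest library was 2.38 in Nr2e3-/- and 1.34 in WT tumors for these genes, against 1.42 and 1.21 over all genes tested. Depth followed the same order, and was 15376261, 19372418 and 28336305 counts in replicates 1, 3 and 2. Its part in the result was not tested. In bulk tumor tissue, fewer cells of a type and less RNA per cell cannot be told apart.

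Markers of other cell types were also uneven among these libraries. The 8 Kupffer cell and macrophage markers summed to 305 to 388 CPM in WT and to 265, 685 and 348 CPM in replicates 1, 2 and 3 of Nr2e3-/-, with the 8 markers above 0 in every library. The 6 neutrophil markers in the table summed to 3.54 to 5.99 CPM in WT and to 3.31, 27.7 and 17.03 CPM in replicates 1, 2 and 3 of Nr2e3-/-, and Mpo, a defining marker, was at 0 in all WT libraries and in replicate 3. The 7 stellate cell and fibroblast markers summed to 243 to 266 CPM in WT and to 277, 161 and 158 CPM in replicates 1, 2 and 3 of Nr2e3-/-. The 7 endothelial markers were at 335 to 348 CPM in WT and 292 to 352 CPM in Nr2e3-/-, the 9 T, NK and B cell markers at 3.96 to 10.6 and 2.87 to 7.35 CPM, the 5 bile duct markers, led by Spp1, at 55.2 to 117 and 67.3 to 418 CPM, and the 5 red blood cell markers at 121 to 166 and 195 to 264 CPM. Spp1, also listed as an AP-1 target, was at 107, 46.1 and 47.1 CPM in WT and at 56.3, 410 and 171 CPM in Nr2e3-/- libraries. Krt19, Krt7, Sox9 and Cftr did not exceed the WT range in Nr2e3-/- replicate 2, and only Krt19 did so in replicates 1 and 3. The part of these markers in the levels of the 10 genes was not tested.

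A list of 13 other genes of the AP-1 family was examined, with each gene tested singly, and 0 passed an adjusted p-value of 0.05 in edgeR. With DESeq2 1 was called (Fosl1, against 8% of all genes tested), with quality-weighted limma-voom 2 (Atf2 and Mafg, against 17.4%), with unweighted limma-voom 0 (against 0.0516%), and in edgeR without Nr2e3-/- replicate 1 all 3 of these (against 21.8%). Unadjusted p-values under 0.05 in edgeR were found for 2 higher (against 11.8% of all genes tested) and 1 lower (against 9.72%), and the list median was 0.03 against 0.01 over all genes tested. Fosl1 (Fra-1), a Fos protein found in invasive tumors, was at 0.77, 0.44 and 0.45 CPM in WT and at 0.60, 6.50 and 1.35 CPM in replicates 1, 2 and 3 of Nr2e3-/-, a log2 fold change of 2.39 (SE 0.84, edgeR adjusted p = 0.175). It followed the order of Ier3, with most of the difference in replicate 2. Atf2, a Jun partner that binds the CRE, had a log2 fold change of 0.51 and Mafg, a small Maf protein, of -0.42, and the groups did not overlap for either.

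Among 15 AP-1 target genes, 13 were tested and 0 passed an adjusted p-value of 0.05 in edgeR, with 3 higher and 3 lower at an unadjusted p-value under 0.05 (against 11.8% and 9.72% of all genes tested). The list median was -0.15, with a range of -0.45 to 0.40 over the 14 alternatives. DESeq2 called 3 of the 13 (against 8% of all genes tested), quality-weighted limma-voom 3 (against 17.4%), unweighted limma-voom 0 (against 0.0516%) and edgeR without Nr2e3-/- replicate 1 called 6 (against 21.8%). Timp1, an inhibitor of matrix metalloproteases, was at 0.27, 0.20 and 0.24 CPM in WT and at 0.46, 5.75 and 1.57 CPM in Nr2e3-/- libraries, a log2 fold change of 3.47 (SE 0.88, edgeR adjusted p = 0.12). It had 7, 6 and 7 counts in WT and 7, 155 and 29 counts in Nr2e3-/- replicates 1, 2 and 3, so that it passed the filter only through the Nr2e3-/- libraries, and the distance of replicate 1 from WT rests on as few counts as WT itself. Vegfa, the main angiogenic growth factor, had a log2 fold change of -0.60 and Hbegf, an EGF receptor ligand, of -1.28 (edgeR adjusted p = 0.13 and 0.164). The targets lay on both sides of 0, as the AP-1 subunits did.

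Of 36 other immediate early genes, 31 were tested, 0 passed an adjusted p-value of 0.05 in edgeR, and 4 were higher and 3 lower at an unadjusted p-value under 0.05 (against 11.8% and 9.72% of all genes tested). Their median log2 fold change was 0.11, with values from -0.98 to 3.01. DESeq2 called 3 (Klf10, Cyr61 and, outside the naming rule and seen after the fact, Sik1) of 30 with an adjusted p-value, against 8% of all genes tested. Quality-weighted limma-voom called 6 of 31 (against 17.4%), unweighted limma-voom 0 of 31 (against 0.0516%), and edgeR without Nr2e3-/- replicate 1 called 9 of 32 (against 21.8%), of which 7 were higher. Klf10, a Krüppel-like factor induced by TGF-β, was at 80.6, 85.1 and 75.4 CPM in WT and at 40.3, 51.8 and 29.7 CPM in Nr2e3-/- libraries, a log2 fold change of -0.98 (SE 0.20, edgeR adjusted p = 0.0936). Cyr61, a matrix-associated growth regulator, had -0.93 (SE 0.24, edgeR adjusted p = 0.123) and Dusp1, the phosphatase that switches off JNK and p38, -0.48 (SE 0.15, edgeR adjusted p = 0.154). The Nr2e3-/- values of these 3 genes lay below every WT value. Groups without overlap were no more frequent in the list than over all genes tested, with 4 of the 31 lower, against 12.9%, and 2 of the 31 higher, against 13.9%.

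Upstream of these genes, 20 kinases and SRF, ETS and CREB factors were tested, with 0 called in edgeR after adjustment and 5 higher and 5 lower at an unadjusted p-value under 0.05 (against 11.8% and 9.72% of all genes tested). DESeq2 called 3 of the 20 (against 8% of all genes tested), quality-weighted limma-voom 7 (against 17.4%), unweighted limma-voom 0 (against 0.0516%) and edgeR without Nr2e3-/- replicate 1 called 8 (against 21.8%). Crem, a CRE-binding factor with inducible repressor forms, was at 28.1, 24.3 and 30.7 CPM in WT and at 31.9, 83.5 and 63.8 CPM in Nr2e3-/- libraries, a log2 fold change of 1.11 (SE 0.32, edgeR adjusted p = 0.135). Map2k4, a kinase that activates JNK, had 0.78 (edgeR adjusted p = 0.13), and Rps6ka5 (MSK1), a kinase that phosphorylates CREB and histone H3, -1.41 (edgeR adjusted p = 0.113). DESeq2 called these 3 genes, and their groups did not overlap. Srf, the factor that binds CArG boxes, was at 16.3 ± 0.849 CPM in WT and 16.3 ± 2.97 CPM in Nr2e3-/- tumors (SD, n = 3 each).

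In the Myc network of 13 partners and antagonists, 0 were called in edgeR after adjustment and 3 were higher at an unadjusted p-value under 0.05 (against 11.8% of all genes tested). They were Max, the obligate partner of Myc (log2 fold change 0.48), and the Max-binding repressors Mnt (0.57) and Mga (0.46). DESeq2 called 0 of the 13, quality-weighted limma-voom 2 (Max and Mga), unweighted limma-voom 0, and edgeR without Nr2e3-/- replicate 1 called 3, with 8%, 17.4%, 0.0516% and 21.8% of all genes tested called in turn. Of 18 Myc target genes, 17 had a positive log2 fold change, the median was 0.53 against 0.01 over all genes tested, and it lay between 0.41 and 0.70 over the 14 alternatives. After adjustment 0 of them were called in edgeR, 6 in DESeq2 (against 8% of all genes tested), 10 in quality-weighted limma-voom (against 17.4%), 0 in unweighted limma-voom (against 0.0516%) and 11 in edgeR without Nr2e3-/- replicate 1 (against 21.8%), and each of these calls was higher in Nr2e3-/-. In edgeR with all libraries, 9 were higher at an unadjusted p-value under 0.05 against 11.8% of all genes tested. For 8 of them all Nr2e3-/- libraries were above all WT libraries, against 13.9% of all genes tested. This list, like the others, was chosen with earlier results of these data known, so its counts are a description only.

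Odc1, the first enzyme of polyamine synthesis and a classical Myc target, was at 21.0, 23.5 and 19.3 CPM in WT and at 31.3, 46.6 and 43.5 CPM in Nr2e3-/- libraries. Its log2 fold change was 0.93 (SE 0.17, edgeR adjusted p = 0.093). Srm, the next enzyme of the same pathway, had 0.99 (SE 0.19) and Hspd1, the mitochondrial chaperonin, 0.57 (SE 0.11), with the same adjusted p-value, and all 3 genes were also called by DESeq2 and by quality-weighted but not unweighted limma-voom. Over the 18 targets, Nr2e3-/- replicate 1, in which Myc was lowest, was above every WT library for 8, within the WT range for 6 and below every WT library for 4 (Ncl, Nop56, Gnl3 and Rrs1, named after their values were seen). Replicates 2 and 3 were each above every WT library for 17 of the 18. The share of all genes tested that lay outside the WT range in each library was not computed. Replicates 2 and 3 were also farther from the WT libraries over all genes tested. Their median absolute log2 differences were 0.32 to 0.39, against 0.21 to 0.24 for replicate 1.

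**Figure D4:**
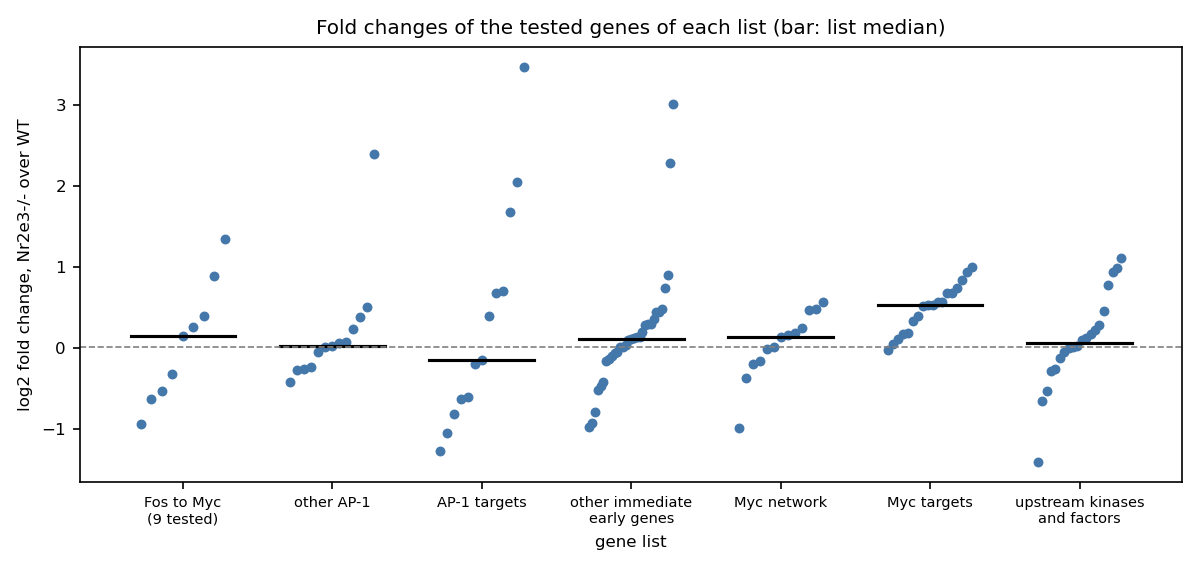
Log2 fold change of Nr2e3-/- over WT for each tested gene of the examined genes and of 6 further lists (points, sorted within a list), with the median of each list (black bar) and of all genes tested (dashed line, 0.01). The Myc targets lie almost wholly above 0, with a median of 0.53, while the other lists spread to both sides. All lists were chosen with earlier results of these data known.

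The genes closest in pattern to Fos, Jun, Egr1 and Myc were sought by the root mean square difference of log2 CPM, centred on its mean over the 6 libraries. Closest to Fos were Areg, an EGF receptor ligand (0.09), Naip2 (0.09) and Prrg1 (0.13). Areg had 3 to 17 counts per library, with 3 in Nr2e3-/- replicate 1, so that its likeness rests on few counts. Closest to Jun were Hivep1 (0.09), Nin (0.09) and Prkch (0.10). Closest to Egr1 were Zfp641 and H2-DMb1 (0.16 each) and Inhba (0.17), and closest to Myc were Tmem194b (0.16), the hepatocyte factor Onecut1 (0.24) and Slc25a30 (0.27). Tmem194b had 1 to 33 counts per library, with 1 in Nr2e3-/- replicate 1. The Onecut1 level was 28.1, 37.6 and 43.3 CPM in WT and 7.42, 33.0 and 19.8 CPM in replicates 1, 2 and 3 of Nr2e3-/-, lowest in the same library as Myc.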

How the data were processed

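RNA was isolated from 6 liver tumors and sequenced from TruSeq libraries. Single-end reads were mapped by the authors (TopHat, mm10) and assigned to genes (featureCounts), and the deposited values are raw counts, without normalization. Versions, annotation and strand setting are not given in the sources used here. The authors' scaled counts, and their comparison table of log2 fold changes and p-values, were not used. Samples were grouped by their titles. The tests used edgeR 4.0.16 (R 4.3.3) with filterByExpr (minimum count 10, minimum total 15), TMM and the quasi-likelihood F test over all genes tested, and log2 CPM used a prior count of 2. Alternatives were RLE and upper quartile normalization, DESeq2 1.42.0, limma-voom (limma 3.58.1) with sample quality weights and, added after the data were seen, without them, other filters, the replicate number as a block, and leaving out each library. The procedures were tested on simulated data. Gene positions and exon lengths came from GENCODE M21 (GRCm38, which is mm10), with union exon lengths. With depths of 15376261 to 28690279 counts, 3 counts correspond to 0.101 to 0.199 CPM, which covers counting error only. Genes named beside the 10 are those called in each list or else the 3 with the smallest p-values, and the 3 closest in pattern to Fos, Jun, Egr1 and Myc. The genes and lists were chosen with earlier results of these data known, and the lists were compiled from general knowledge. Figures were made with Python 3.11.15 and matplotlib 3.10.9.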

Additional observations from a re-analysis of the deposited data

How the results depend on the processing

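The number of genes called with an adjusted p-value under 0.05, 13 in edgeR, was 8 with upper quartile normalization, 1096 with DESeq2, 2360 with limma-voom and sample quality weights, 7 with limma-voom without these weights (an alternative chosen after seeing the data), 70 without a filter beyond 1 count and 7 with at least 10 counts in every library. Leaving out a library gave 0 to 3022, with 0 without WT replicate 1 or 3 or Nr2e3-/- replicate 3 (2151, 1785 and 1693 genes at an unadjusted p-value under 0.05), 2 without WT replicate 2, 18 without Nr2e3-/- replicate 2 and 3022 without Nr2e3-/- replicate 1. Of the 10 genes examined, 1 was called with limma-voom and sample quality weights, 0 without the weights, and between 0 and 2 when a library was left out. When a library was left out, Jun lay between -0.27 and 0.43 and Ier3 between -0.28 and 1.86, and both reversed only without Nr2e3-/- replicate 2. The median of the other AP-1 genes was between -0.27 and 0.11 when a library was left out. That of the AP-1 targets was 0.40 without the filter and 0.39 with DESeq2. These 2 medians are over 15 genes in place of 13, since they include Mmp3 and Il6, which were at 0 to 0.32 CPM. The median of the Myc network was 0.051 with upper quartile normalization, which moved the median of all genes tested from 0.01 to -0.08. The cause was not tested. With the replicate number as a block 0 genes were called (2438 at an unadjusted p-value under 0.05), but the labels state no pairing. Same-numbered libraries correlated by -0.08, 0.22 and 0.02 in their deviations from the group means. With so few libraries these correlations cannot decide whether same-numbered samples share more than a number. Only WT replicate 2 and Nr2e3-/- replicate 2 correlated best with their own number. Since 0 genes were called with the block, it could not add a call among the 10 genes. With it, Egr1 had a log2 fold change of -1.02 (SE 0.16, edgeR unadjusted p = 0.000824, edgeR adjusted p = 0.146). Fosb, tested without the filter, had a log2 fold change of -0.91 (edgeR adjusted p = 0.539).

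Per kb of the longest transcript in place of all exons, the Fos family sum (without Fosl1) was 3.73 CPM per kb in WT and 3.64 in Nr2e3-/- tumors. It amounted to 5.03% and 3.73% of the Jun family. On this scale the percentages of the groups nearly met, with 4.65% in WT replicate 2 and 4.6% in Nr2e3-/- replicate 1. Junb took 27.5% and Jund 59.2% of the Jun family in WT, and Fos took 30.2% and Fosl2 68.1% of the Fos family in Nr2e3-/- tumors. Depth limits Fosb most, with 2 to 18 counts per library.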

Other observations

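A few genes of the lists that the rule did not name were picked after their values were seen, for their spread among the Nr2e3-/- libraries. Gadd45g, a stress-inducible growth arrest gene, was at 5.45, 3.99 and 5.90 CPM in WT and at 2.58, 79.3 and 40.6 CPM in replicates 1, 2 and 3 of Nr2e3-/-, a log2 fold change of 3.01 (SE 0.96, edgeR adjusted p = 0.155). Socs3, the STAT3-induced inhibitor of cytokine receptors, was at 11.7, 9.85 and 10.7 CPM in WT and at 5.30, 96.5 and 54.0 CPM in replicates 1, 2 and 3 of Nr2e3-/- (log2 fold change 2.28, SE 0.82, edgeR adjusted p = 0.18). Plaur, the urokinase receptor and an AP-1 target, was at 1.81, 1.76 and 1.08 CPM in WT and at 1.19, 13.0 and 4.597 CPM in Nr2e3-/- libraries (log2 fold change 2.04, edgeR adjusted p = 0.184). For these 3 genes Nr2e3-/- replicates 2 and 3 were above every WT library and replicate 1 was within or below the WT range, the arrangement seen for Junb and Ier3.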
